A study of Mus musculus with 10 samples.

Results

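Myosin heavy chains of the sarcomere are the motor proteins of the thick filament, and 8 genes for them were examined: Myh1, Myh2, Myh3, Myh4, Myh6, Myh7, Myh7b and Myh8. They were taken by gene symbol and not by a rule on measured values, but with earlier results of these data known. All 8 were found among the 23337 genes of the count files. The libraries came from a study of E0, an enhancer in the first intron of Ttn, the gene for the sarcomeric protein titin. Bulk RNA-Seq was available for the left ventricle (LV) and the skeletal muscle (SkM) of 5 mice, with 1 library for each mouse and tissue. There were 2 WT mice and 3 E0del/+ mice, the latter with E0 deleted from 1 copy of Ttn. All 5 were hybrids aged 17 weeks from matings of C57BL/6 E0del/+ with 129SvEv WT mice. Labels number the mice of each genotype as replicates and repeat that number as the batch, which leaves E0del/+ replicate 3 without a WT mouse in its batch. The study made 3 independent deletion lines, and E0del is both the name of the allele and that of 1 line, so the labels may name that line. They give neither the sex of a mouse, where the study used both, nor which skeletal muscle was taken. Poly(A) RNA was made into libraries by a transposase kit that keeps no strand.

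As background, each sarcomere gene of the family encodes a heavy chain with its own speed of ATP hydrolysis, and a muscle fibre is typed by the chain it holds. Adult mouse ventricle uses mainly the α chain of Myh6 and little of the β chain of Myh7, which is also the chain of slow skeletal fibres. Myh2, Myh1 and Myh4 encode the IIa, IIx and IIb chains of fast fibres, from slower to faster, while Myh3 and Myh8 encode the embryonic and perinatal chains of developing muscle and Myh7b encodes an ancient slow-type chain.

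The fast and developmental genes lie in a row on the plus strand of chromosome 11 (mm10), in the order Myh3 (chr11:67078300-67102291), Myh2 (chr11:67171027-67197517), Myh1 (chr11:67200114-67224575), Myh4 (chr11:67238029-67260446) and Myh8 (chr11:67277124-67308633), over 230333 bp. Myh6 (chr14:54941921-54966607) and Myh7 (chr14:54970688-54994549) lie on the minus strand of chromosome 14 with 4080 bp between them. Myh7b (chr2:155611212-155634307, plus strand) shares chromosome 2 with Ttn, 78.6 Mb away. The files give the 8 genes 39 to 42 exons and a summed exon length of 5992 to 6163 bp, so that their counts can be compared with little correction for length.

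Total counts per library ranged from 11010021 to 15361520 in LV and from 13892390 to 17484873 in SkM. Levels are given as CPM, the count scaled by the total of its library. Different genes are compared as RPKM, which also divides by exon length, but genes within lists of other genes are ranked by CPM. Ttn, reported first because its enhancer is the target, was at 7959 and 9344 CPM in WT LVs and at 7737, 5560 and 6597 CPM in E0del/+ LVs. In SkM, Ttn was at 24205 and 15856 CPM in WT and at 20092, 18854 and 13585 CPM in E0del/+. The deletion lies in an intron, so exon counts do not check the genotype labels directly. The tissue labels were checked against markers of fast fibres and of ventricle. In 9 of the 10 libraries these markers and the heavy chains stood on the side the label gives, and the library labelled WT LV replicate 2 held both sets. Its fast-fibre markers summed to 21839 CPM against 101 to 117 CPM in the other 4 LVs, and its ventricle markers to 29980 CPM against 39066 to 45849 CPM. Results in LV are therefore given with and without this library. The 9344 CPM of Ttn in WT LV came from it, and Ttn was higher in every SkM than in any LV. Without this library, Ttn differed by -0.25 ± 0.39 on the log2 scale (SE, E0del/+ against a lone WT LV). The part of skeletal muscle RNA in its Ttn value was not tested.

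Cardiac heavy chains led in LV. Myh6, which encodes the fast α chain of the adult mouse ventricle, stood at 50083 and 37356 CPM in WT LVs and at 54803, 43022 and 52513 CPM in E0del/+ LVs. Myh7, the β chain gene, stood at 1681 and 1253 CPM in WT LVs and at 1649, 2090 and 1738 CPM in E0del/+ LVs. Myh7b was at 426 and 324 CPM in WT LVs and at 452, 730 and 478 CPM in E0del/+ LVs. For each of these 3 genes the library of WT LV replicate 2 was the lowest of the 5 LVs. It held 74.6% of the mean of the other 4 LVs for Myh6, 70.0% for Myh7 and 62.1% for Myh7b. E0del/+ LV replicate 2 had the highest Myh7 and Myh7b and, among the 4 LVs other than WT replicate 2, the lowest Myh6. Per length, the order among these 4 LVs was Myh6 (7077 to 9015 RPKM), Myh7 (272 to 345 RPKM) and Myh7b (69.2 to 118 RPKM), with no overlap between neighbours.

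These genes also carry a set of related microRNAs, shown here because their seeds tie the 3 cardiac and slow chain loci together. miR-208a-3p lies in intron 29 of Myh6 (chr14:54949072-54949093, minus strand), miR-208b-3p in intron 31 of Myh7 (chr14:54975710-54975731, minus strand) and miR-499-5p in intron 19 of Myh7b (chr2:155622893-155622913, plus strand). Coordinates are of GRCm38.p6, and introns are numbered by the exons in the count files. Capitals mark the seed, bases 2 to 8.
miR-208a-3p: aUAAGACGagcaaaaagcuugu
miR-208b-3p: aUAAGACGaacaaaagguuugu
miR-499-5p: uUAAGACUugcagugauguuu
The seed UAAGACG was the same in miR-208a-3p and miR-208b-3p, and miR-499-5p shared its first bases, UAAGAC. Poly(A) libraries do not measure mature microRNAs, so the counts of their hairpin loci were read only as reads over those introns. This comparison was chosen after the values were seen. The miR-208b locus was at 709 and 472 RPKM in WT LVs and at 610, 991 and 658 RPKM in E0del/+ LVs. These numbers were above those of the exons of its host Myh7 in each LV. The locus spans 77 bp and the Myh7 exons 6054 bp, and RPKM of so short a locus cannot be compared directly with that of long exons. Its counts were 2.85% to 3.65% of the Myh7 counts in the 5 LVs and 0% to 0.155% in the 5 SkMs, although Myh7 itself was well counted in SkM. Reads over the miR-208a locus stood at 45.5 to 119 RPKM in LV and at most 0.848 RPKM in SkM, and those over the miR-499 locus at 0 to 1.94 RPKM in LV and 0 in SkM. Mhrt, a long RNA antisense to Myh7 that the files list as D830015G02Rik, showed the same division, with 70.4 to 159 RPKM in LV and 0.0691 to 0.446 RPKM in SkM. Per length it was 32.4% to 46.0% of Myh7 in LV and 0.157% to 1.29% in SkM. Where exons of opposite strands overlap, reads from the 2 genes cannot be told apart, and Myh7 exons cover 463 of the 828 exon bases of Mhrt (55.9%) in the files, so the Mhrt values are uncertain.

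Fast heavy chains led in SkM. Myh4, the IIb gene, was at 76076 and 76517 CPM in WT SkMs and at 70877, 75884 and 80026 CPM in E0del/+ SkMs, a spread of 1.13 times between the highest and the lowest. Myh1, the IIx gene, was at 5051 and 1707 CPM in WT and at 5984, 6774 and 3240 CPM in E0del/+. Myh2, the IIa gene, was at 1009 and 528 CPM in WT and at 1486, 2060 and 890 CPM in E0del/+. Myh1 and Myh2 thus varied by 3.97 and 3.90 times among mice while Myh4 hardly varied. The WT and E0del/+ values of the 3 fast genes overlapped.

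The fast genes share short stretches of promoter sequence, shown because Myh1, Myh2 and Myh4 move together between the tissues. Each line starts and ends with the blocks, in capitals, that the promoters of Myh4, Myh1, Myh2 and the perinatal Myh8 have in common, and lies between 216 and 41 bases before the RefSeq start on the plus strand (GRCm38.p6). The stretches are chr11:67237625-67237667 for Myh4, chr11:67199886-67199955 for Myh1, chr11:67170854-67170915 for Myh2 and chr11:67277020-67277083 for Myh8.
Myh4: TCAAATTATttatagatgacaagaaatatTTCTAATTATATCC
Myh1: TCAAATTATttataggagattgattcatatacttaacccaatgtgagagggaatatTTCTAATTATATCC
Myh2: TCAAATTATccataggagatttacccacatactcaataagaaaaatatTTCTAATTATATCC
Myh8: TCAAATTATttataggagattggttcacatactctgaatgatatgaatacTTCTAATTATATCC
TTCTAATTATATCC was found in 4 of the 32851 mouse promoters in the table (0.0122%), all of them of these 4 genes, and TCAAATTAT in 59 promoters (0.180%). The blocks were found by comparing the members with each other, so their rarity is a description. Of motifs searched on both strands of the 250 bases before the start, TATAAA occurred in 4 members (Myh1, Myh3, Myh4 and Myh8) and in 12.4% of all promoters. CANNTG, the E-box core, occurred in 6 members and in 66.2% of promoters, and CATTCC, the core bound by TEAD factors, in Myh1, Myh4 and Myh6 and in 12.6% of promoters. In Myh1, Myh4 and Myh8 the reverse complement of TATAAA can be read at the end of the first block, and a match is no evidence of binding.

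Cardiac and slow chain genes were also counted in SkM, at levels that differed widely between mice. Myh7, here the slow-fibre chain, was at 824 and 73.8 CPM in WT SkMs and at 1193, 1548 and 160 CPM in E0del/+ SkMs. Myh7b was at 11.3 and 2.29 CPM in WT and at 17.4, 21.5 and 4.29 CPM in E0del/+. Myh6 was at 70.5 and 37.7 CPM in WT and at 214, 128 and 39.7 CPM in E0del/+. The highest SkM exceeded the lowest 21.0 times for Myh7, 9.38 times for Myh7b and 5.66 times for Myh6. WT replicate 2 was the lowest and E0del/+ replicate 3 the second lowest for each of the 3 genes.

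The fast chains were counted at low levels in LV. Apart from WT replicate 2, Myh4 stood at 72.4 CPM in the WT LV and at 81.7, 71.2 and 70.3 CPM in E0del/+ LVs, which is 0.0974% of its mean in SkM. Myh1 stood at 5.76 CPM in that WT LV and at 7.75, 5.45 and 7.94 CPM in E0del/+ LVs, and Myh2 at 2.30 CPM and at 2.73, 1.82 and 2.01 CPM. In WT LV replicate 2, Myh4 was at 18473 CPM, Myh1 at 765 CPM and Myh2 at 196 CPM.

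Chains of developing muscle were scarce in both tissues. Myh8, the perinatal chain gene, was at 8.35 and 8.69 CPM in WT SkMs and at 5.97, 6.996 and 5.21 CPM in E0del/+ SkMs. In LV it had 5 and 9 counts in WT and 0 counts in each of the 3 E0del/+ libraries. Myh3, the embryonic chain gene, was at 3.02 and 6.18 CPM in WT SkMs and at 3.26, 4.53 and 2.18 CPM in E0del/+ SkMs. Its LV counts were 2 and 6 in WT and 3, 1 and 0 in E0del/+. The larger LV counts of both genes came from WT replicate 2. In SkM per length, Myh4 (11781 to 13302 RPKM) was followed by Myh1 (284 to 1125 RPKM), Myh2 (86.8 to 339 RPKM), Myh7 (12.2 to 256 RPKM) and Myh6 (6.21 to 35.1 RPKM), and then by Myh7b, Myh8 and Myh3, all between 0.364 and 3.48 RPKM. Ranges of neighbours in this order overlapped, except from Myh4 to Myh1 and from Myh6 to the last 3 genes, although within each SkM library Myh1 exceeded Myh2 by 3.27 to 5.06 times.

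**Figure D1:**
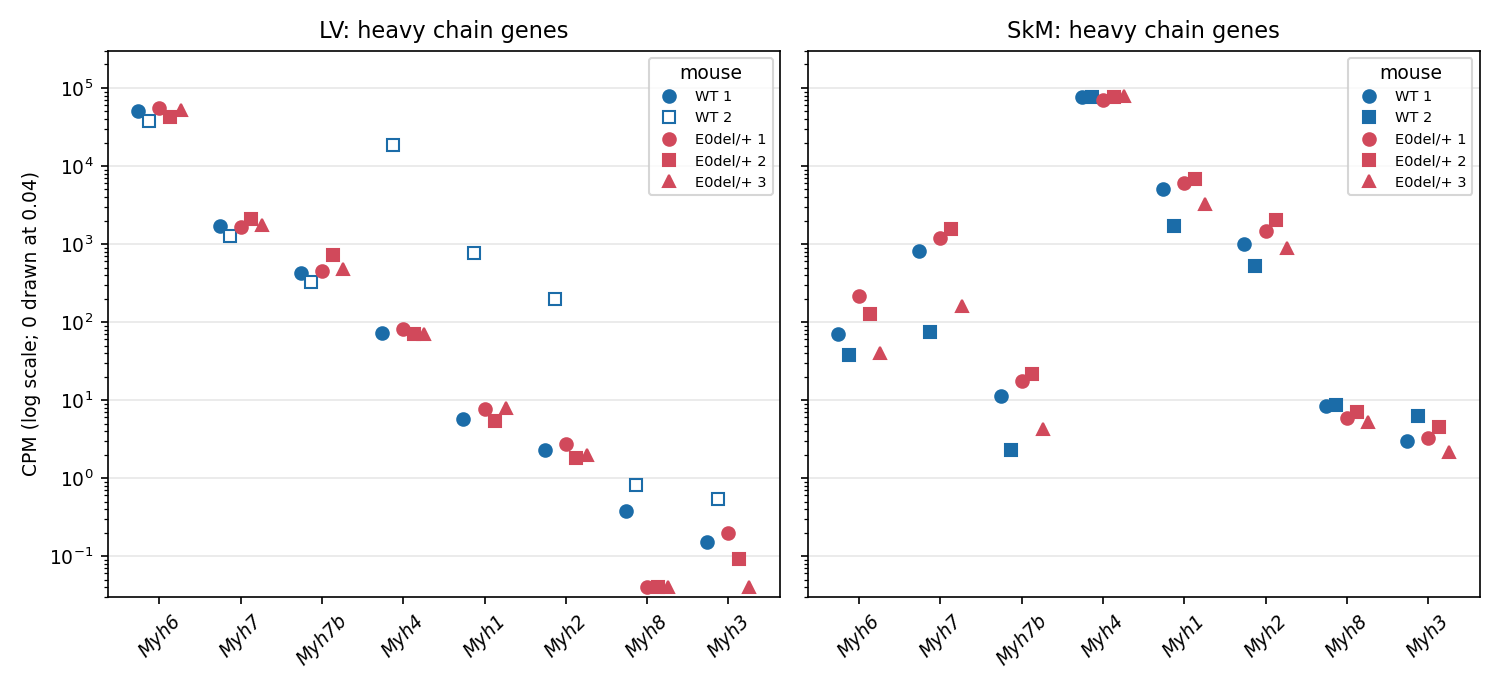
CPM on a log axis of the 8 heavy chain genes in LV (left) and SkM (right), 1 point per library, with WT in blue, E0del/+ in red and the library of WT LV replicate 2 as open squares. Myh6 leads in LV and Myh4 in SkM, and the open squares of Myh4, Myh1 and Myh2 lie far above the other LVs.

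SkM was compared with LV to see which heavy chains divide the tissues. With edgeR's quasi-likelihood test and Benjamini-Hochberg adjustment over all genes, 7 of the 8 members passed an adjusted p of 0.05, 5 of them higher and 2 lower in SkM, where 59.9% of the 14327 genes tested passed (28.5% higher and 31.4% lower). A share of 7 in 8 therefore has to be read against a large background. Myh4 was higher in SkM by 7.10 ± 1.29 on the log2 scale (SE, n = 5 libraries per tissue, adjusted p = 0.00121), Myh1 by 6.89 ± 1.19 and Myh2 by 6.74 ± 1.07. Without WT LV replicate 2 these differences were 10.67 ± 0.48, 9.98 ± 0.69 and 9.51 ± 0.56 (7 of 8 members passed, with 52.9% of 14815 genes, 24.9% higher and 27.9% lower), so that this library alone had narrowed the contrast of the fast chains. Myh3 was higher in SkM by 4.94 ± 0.60 with it and by 5.52 ± 0.77 without it. Myh8 also passed (adjusted p = 1.34e-05). In WT mice it was at 0.384 and 0.810 CPM in LV and at 8.35 and 8.69 CPM in SkM. With 0 counts in the E0del/+ LVs the difference in E0del/+ mice can only be bounded: the 276 counts of the E0del/+ SkMs, 6.07 CPM pooled, were at least 76.6-fold above the limit of 3 counts over the 3 LVs, 0.0793 CPM. Such limits, and the intervals of shares below, cover counting error only.

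Myh6 and Myh7b were the members lower in SkM. Myh6 had a log2 difference of -8.55 ± 0.64 (edgeR's quasi-likelihood test, adjusted p = 9.74e-06, n = 5 per tissue) and Myh7b of -4.94 ± 0.53 (adjusted p = 5.97e-05), and without WT LV replicate 2 they had -8.62 ± 0.61 and -5.004 ± 0.56. Myh7, the chain that heart and slow fibres share, did not pass (-0.75 ± 0.65, adjusted p = 0.345), and had -0.82 ± 0.75 (adjusted p = 0.381) without WT LV replicate 2. Its SkM values lay below those of the 4 LVs other than that library, the highest of them, 1548 CPM, by little. With the mouse as a block, the same 7 members passed, and the difference of Myh7 was -1.34 ± 0.67 (adjusted p = 0.133, where adjusted p ranged from 0.0536 to 0.661 over all alternatives for Myh7). In bulk tissue, fewer fibres of a type cannot be told apart from less RNA of a gene in each fibre. Scaling by total counts without TMM (edgeR's trimmed mean of M-values) moved the median of all genes by -0.62 and the calls from 4077 higher and 4502 lower, 47.5% higher, to 1740 higher and 8086 lower, 17.7% higher. No member changed direction or side of the threshold with it or with any other alternative of this comparison.

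The isoform share of a gene was its count per exon length over the sum of the same for all 8 members. Myh6 made up 95.8% of the family in WT LV replicate 1 and 96.1%, 93.7% and 95.8% in E0del/+ LVs. Myh7 followed with 3.23% in that WT LV and 2.91%, 4.57% and 3.18% in E0del/+ LVs, and Myh7b with 0.804% and with 0.781%, 1.57% and 0.861%. E0del/+ LV replicate 2 stood apart from these by its larger share of both slow chains. The fast and developmental chains together left little room: Myh4, the largest of them, made up 0.130% to 0.157% of the family in these 4 LVs. In WT LV replicate 2 the family was made up of 63.8% Myh6, 31.9% Myh4, 2.15% Myh7, 1.32% Myh1, 0.546% Myh7b and 0.335% Myh2. The widest 95% Wilson interval of a member's share of the family's counts reached 0.117 percentage points to each side.

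In SkM, Myh4 made up 91.6% and 97.0% of the family in WT and 88.9%, 87.8% and 94.9% in E0del/+. Myh1 made up 6.08% and 2.16% in WT and 7.4999%, 7.84% and 3.84% in E0del/+, and Myh2 1.202% and 0.662% in WT and 1.84%, 2.36% and 1.04% in E0del/+. The slow chain Myh7 held 0.986% and 0.0930% in WT and 1.49%, 1.78% and 0.188% in E0del/+. Mice with a smaller share of Myh4 had larger shares of Myh1, Myh2 and Myh7 alike, with WT replicate 2 and E0del/+ replicate 2 at the ends of the range. Myh6, Myh7b, Myh8 and Myh3 each held 0.265% or less in every SkM.

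Between the tissues of a mouse, the share of Myh6 differed by -88.9 ± 14.1 percentage points, SkM minus LV (mean and SD, n = 5 mice), and that of Myh4 by 85.6 ± 11.7 points. Each of the 8 shares differed in the same direction in 5 of 5 mice, with a two-sided exact permutation p of 0.0625 for each, the smallest that signs within 5 mice can give. Without the mouse WT replicate 2, the differences were -95.2 ± 1.13 points for Myh6 and 90.7 ± 3.16 points for Myh4, each with an exact permutation p of 0.125, the smallest with 4 mice. Although Myh7 had not passed the test of its level, its share was lower in SkM in each mouse, with a mean difference of -2.30 ± 0.626 points. All 8 genes together took 4.59% to 5.84% of all counts in LV (mean 5.37 ± 0.491%, SD, n = 5) and 7.89% to 8.64% in SkM (8.25 ± 0.315%). The difference of the mean between genotypes, E0del/+ minus WT, was -0.274 points in LV, 0.0305 points in LV without WT replicate 2, and 0.256 points in SkM, all within the spread between mice. When each library was left out, it ranged from -0.579 to 0.0583 points in LV and from 0.0471 to 0.464 points in SkM. The LV difference also changed sign without E0del/+ replicate 2.

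**Figure D2:**
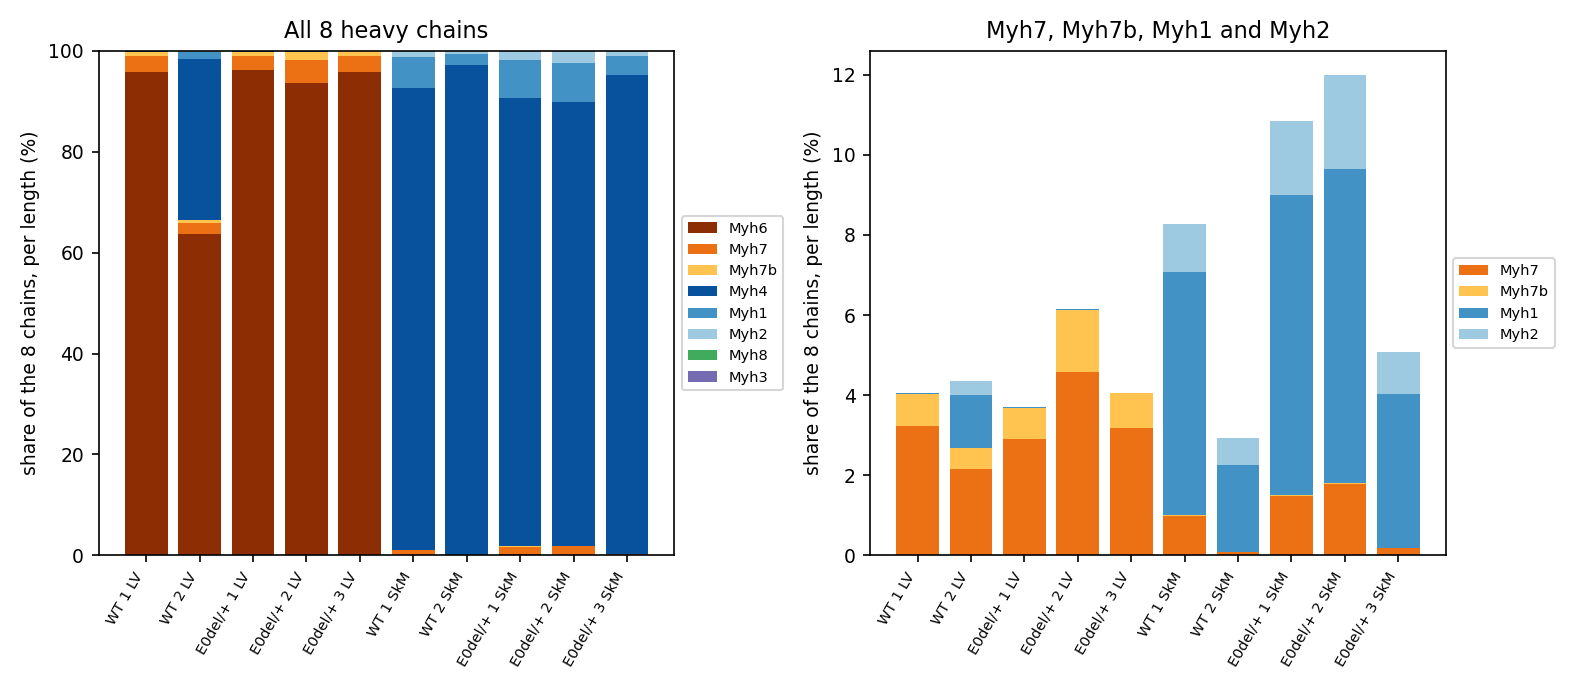
Share of each heavy chain gene among the 8, per length, in each library (left), and the shares of Myh7, Myh7b, Myh1 and Myh2 on a finer scale (right). LVs are nearly all Myh6 and SkMs nearly all Myh4, and the bar of WT 2 LV holds 63.8% Myh6 and 31.9% Myh4.

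Genotypes were compared in LV to see whether loss of E0 on 1 allele goes along with a shift of heavy chains, a known accompaniment of cardiac stress. No member passed in LV, as 0 of 6 tested members and 0% of the 13420 genes tested were called by edgeR's quasi-likelihood test at an adjusted p of 0.05 (564 genes at an unadjusted p under 0.05). Myh3 and Myh8 were too low in LV to be tested. Myh6 differed by 0.15 ± 0.27 on the log2 scale (SE, 2 WT and 3 E0del/+, adjusted p = 0.997), Myh7 by 0.25 ± 0.21 and Myh7b by 0.49 ± 0.23, with the same adjusted p. Without WT LV replicate 2 the differences were 0.02 ± 0.45, 0.12 ± 0.32 and 0.36 ± 0.32, in a fit that takes the lone WT library to vary like the others (0 of 13890 genes called, 104 at an unadjusted p under 0.05). Differences of that size were not separated from the spread between mice.

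By CPM, Myh7b was the only tested member whose WT and E0del/+ values did not overlap in LV. After TMM scaling, as in the tests, Myh7 did not overlap either, by a small margin, with 1646 and 1352 in WT and 1653, 1871.5 and 1833 in E0del/+. The share of all genes without overlap was computed for CPM only, so this has no background beside it. For Myh7b all 3 E0del/+ LVs lay above both WT LVs in CPM, as they did for 8.82% of the genes tested, and another 6.53% lay below, where chance gives 10% each way. The unadjusted p of Myh7b was 0.0685 in edgeR's quasi-likelihood test (adjusted p = 0.997). Within batch 1 the E0del/+ LV held 1.06 times the WT value of Myh7b, and within batch 2, whose WT library is the one with skeletal muscle counts, 2.25 times. For Myh7 these ratios were 0.981 and 1.67, and for Myh6 1.09 and 1.15. Myh7 as a share of Myh6 and Myh7, which does not involve the fast chains, was 3.26% in both WT LVs and 2.93%, 4.65% and 3.22% in E0del/+ LVs. The ratio of Myh7b to Myh7 was 0.249 and 0.254 in WT LVs and 0.269, 0.343 and 0.270 in E0del/+ LVs. E0del/+ LV replicate 2 was the highest by both. The genotypes overlapped in the share of Myh7, while the 3 E0del/+ LVs lay above both WT LVs in the ratio of Myh7b to Myh7. That ratio was not tested, and how often other ratios separate the genotypes was not computed.

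The fast chains appeared lower in E0del/+ LVs through a single WT library. Myh4 differed by -7.09 ± 1.62 on the log2 scale, Myh1 by -5.89 ± 1.43 and Myh2 by -5.60 ± 1.34 (adjusted p = 0.997 each by edgeR's quasi-likelihood test, 2 WT and 3 E0del/+). Without WT LV replicate 2 they differed by 0.05 ± 0.23, 0.31 ± 0.38 and -0.05 ± 0.51. DESeq2's Wald test called 12 genes in LV, 1 higher and 11 lower, and Myh4 was among the lower. Leaving out WT LV replicate 1 instead, so that the library with skeletal muscle counts stood alone for WT, gave 578 calls, 574 of them lower, with Myh4, Myh1 and Myh2 among them. With the batch as a block, 5 genes were called, all lower: the Y-linked Ddx3y, Eif2s3y, Kdm5d and Uty, and Mstn, the gene of the muscle growth inhibitor myostatin. Mstn stood at 43.3 CPM in WT LV replicate 2, at 0.325 to 0.908 CPM in the other 4 LVs and at 148 to 213 CPM in SkM, so it was among the skeletal muscle counts of that library. The WT mouse of batch 2 expressed Y-linked genes and its E0del/+ mouse expressed Xist, so that sex and genotype cannot be told apart within that batch.

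Shares of the members tested in LV did not separate the genotypes. Myh3 and Myh8, with 9 counts or fewer per library, were not tested. Myh8 held 0.000726% and 0.00137% of the family in WT LVs and 0% in E0del/+ LVs. Its values did not overlap, but they rest on these few counts and have no share over all genes beside them. Myh6 had a higher mean share in E0del/+ by 15.4 percentage points (two-sided exact permutation p = 0.3, 2 WT and 3 E0del/+, where 0.1 is the smallest p that 10 splits allow), a difference that became -0.595 points without WT replicate 2. Myh7 differed by 0.864 points (exact permutation p = 0.6) and Myh7b by 0.395 points (exact permutation p = 0.5), and without WT replicate 2 by 0.324 and 0.266 points.

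In SkM, 0 of the 8 members and 0% of the 13154 genes were called between genotypes (edgeR's quasi-likelihood test, 114 genes at an unadjusted p under 0.05, and 0 called by DESeq2). Myh4, which makes up most of the family, differed by -0.01 ± 0.21 on the log2 scale (SE, 2 WT and 3 E0del/+, adjusted p = 0.9998), the most even member. Myh2 differed by 0.99 ± 0.42 and Myh1 by 0.72 ± 0.50, and the cardiac and slow chains Myh6, Myh7 and Myh7b by 1.25 ± 0.67, 1.22 ± 1.21 and 1.17 ± 0.86, all with the same adjusted p. The 5 positive differences rested on values that overlapped between the genotypes. WT replicate 2 weighed on them: without it, with a lone WT library that is taken to vary like the others, Myh7 differed by 0.37 ± 1.18, Myh7b by 0.49 ± 0.89, Myh1 by 0.22 ± 0.46, Myh2 by 0.69 ± 0.52 and Myh6 by 0.97 ± 0.90. Without WT replicate 1 the difference of Myh7 was 3.59 ± 1.44 and that of Myh1 1.52 ± 0.49.

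The developmental chains had lower estimates in E0del/+ SkM. Myh8 differed by -0.49 ± 0.25 and was the only member whose groups did not overlap, with all 3 E0del/+ SkMs below both WT SkMs, as for 7.31% of the genes tested (4.14% lay above). Its share among the 8 was 0.0103% in WT and 0.00710% in E0del/+ on average, with a two-sided exact permutation p of 0.1, the smallest possible here. Myh3 differed by -0.50 ± 0.52, with its highest value in WT replicate 2, and by 0.28 ± 0.56 without that mouse. The shares of Myh4 (-3.79 points, exact permutation p = 0.4), Myh1 (2.27 points, p = 0.4), Myh2 (0.816 points, p = 0.3) and Myh7 (0.612 points, p = 0.4) did not separate the genotypes.

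Within batches in SkM, Myh6 was 3.03 times the WT value in the E0del/+ mouse of batch 1 and 3.39 times in that of batch 2. With the batch as a block its difference was 1.68 ± 0.17 (adjusted p = 0.131 in edgeR's quasi-likelihood test, with 0.467 or more under each other alternative), and 1 gene, the Y-linked Eif2s3y, was called, as lower. Myh7 gave ratios of 1.45 and 21.0 in the same batches and 2.45 ± 0.89 with the block. For Myh1 the ratios were 1.18 and 3.97 and for Myh2 1.47 and 3.90, and those of Myh8 were 0.715 and 0.805. E0del/+ replicate 3, with low values of Myh6, Myh7 and Myh7b, has no WT partner and does not enter these ratios.

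**Figure D3:**
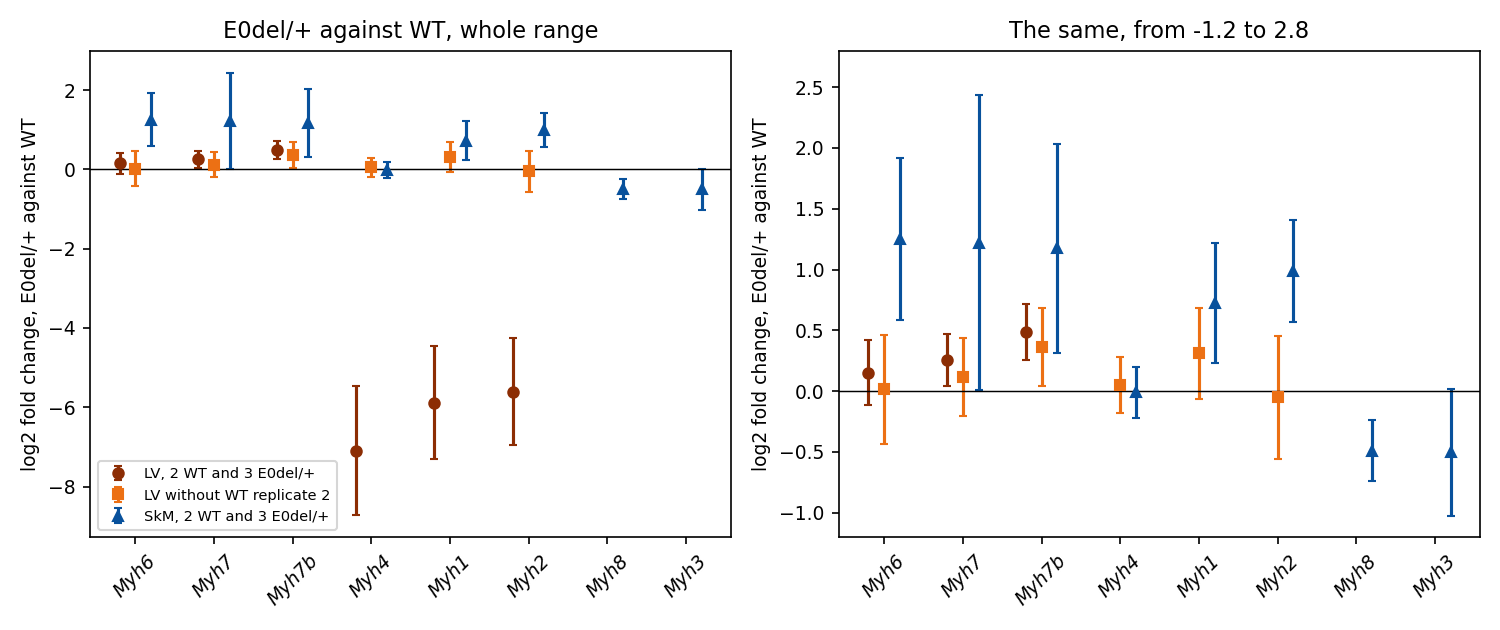
Log2 fold change of E0del/+ against WT for the heavy chain genes tested, with its standard error, over the whole range (left) and from -1.2 to 2.8 (right). Values are for LV with all 5 libraries, LV without WT replicate 2 and SkM. Myh3 and Myh8 were not tested in LV. The large negative values of Myh4, Myh1 and Myh2 in LV are absent without WT replicate 2.

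The difference between the genotype effects of the tissues was tested as an interaction over the 10 libraries, and 0 of 8 members and 0% of the 14327 genes were called by edgeR's quasi-likelihood test (477 genes at an unadjusted p under 0.05). DESeq2 called 17 genes, all with a positive interaction, with Myh1, Myh2 and Myh4 among them, whose effects were strongly negative in LV. Without WT replicate 1, edgeR called 174 genes, again with these 3 members among them. Without WT LV replicate 2, 0 genes were called, and Myh4 had a value of -0.09 ± 0.49 in place of 7.04 ± 2.12, Myh1 0.39 ± 0.77 in place of 6.58 ± 1.95 and Myh2 1.01 ± 0.70 in place of 6.57 ± 1.79. The interaction of the fast chains thus rested on that library.

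The chains varied among the 5 SkMs in an order in which the genotypes overlapped. Myh7, Myh7b, Myh1 and Myh2 had the same order of libraries, E0del/+ replicate 2 highest, then E0del/+ replicate 1, WT replicate 1, E0del/+ replicate 3 and WT replicate 2. Markers of slow fibres other than heavy chains showed that order in 6 of 7 genes, Casq2 being the exception by an exchange of WT replicate 1 and E0del/+ replicate 1. These 7 genes summed to 828 and 144 CPM in WT SkMs and to 1160, 1388 and 264 CPM in E0del/+ SkMs, with Atp2a2, the slow calcium pump, the most abundant in each, and the highest library exceeded the lowest by 5.77 to 18.4 times in single genes. Fast-fibre markers varied less, by 1.11 to 1.80 times, and summed to 83985 and 101825 CPM in WT and to 87560, 89693 and 92355 CPM in E0del/+. Xist stood at 397 CPM in WT replicate 1 and at 364 and 278 CPM in E0del/+ replicates 1 and 2, and at 0.343 CPM in WT replicate 2 and 0.422 CPM in E0del/+ replicate 3, the 2 mice with the lowest slow-chain levels. The Y-linked Ddx3y was at 94.1 CPM in WT replicate 2 and 108 CPM in E0del/+ replicate 3, at 0.369 and 0.333 CPM in E0del/+ replicates 1 and 2, and at 12.5 CPM in WT replicate 1. WT SkM replicate 1 thus held Y-linked counts beside Xist, unlike the LV of the same mouse (Ddx3y at 0.384 CPM), and their source was not tested. Whether sex, the muscle sampled or its depth had a part in this was not tested. Xist expression as a block, which was chosen with the values already known and places WT replicate 1 with the Xist-expressing mice, narrowed the errors of the slow and intermediate chains, with Myh7 at 0.93 ± 0.19, Myh7b at 0.87 ± 0.21, Myh1 at 0.62 ± 0.19 and Myh2 at 0.82 ± 0.23, and called 0 genes (306 at an unadjusted p under 0.05).

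**Figure D4:**
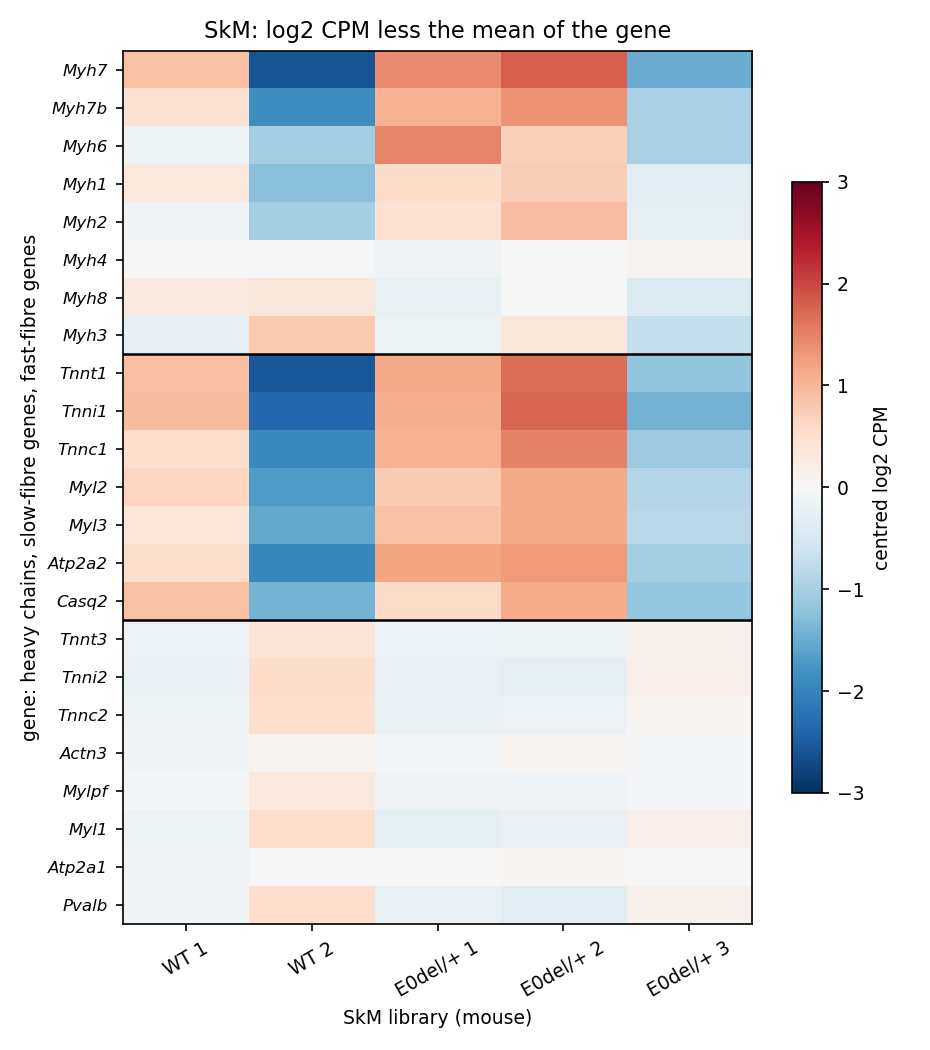
Log2 CPM less the gene's mean over the 5 SkM libraries, for the 8 heavy chain genes, 7 slow-fibre genes and 8 fast-fibre genes, separated by lines (red higher, blue lower). Myh7, Myh7b, Myh1 and Myh2 share the order of libraries that 6 of the 7 slow-fibre genes have, and Myh4 is nearly even.

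Myh6 in SkM was set beside other genes of the ventricle. As a percentage of the mean of the 4 LVs other than WT replicate 2, Myh6 was at 0.141% and 0.0753% in WT SkMs and at 0.426%, 0.255% and 0.0792% in E0del/+ SkMs. The median of Tnnt2, Tnni3, Mybpc3 and Ryr2, of the cardiac troponins, myosin-binding protein C and calcium release channel, was 0.110% and 0.0928% in WT SkMs and 0.363%, 0.115% and 0.10004% in E0del/+ SkMs. These 4 were picked from the 8 genes of the ventricle list after their values were seen, and the others did not all follow them. Actc1, the cardiac actin gene, was at 16.1% and 1.16% of LV in WT SkMs and at 7.93%, 9.65% and 0.744% in E0del/+ SkMs, with WT replicate 1 highest, and Myl2 and Myl3 also belong to the slow-fibre list. E0del/+ SkM replicate 1 was the highest for Myh6 and for the median of the 4, and the only SkM with any count of Nkx2-5, a cardiac transcription factor, at 0.369 CPM. Myh6 was above each of the 4 genes in WT SkM replicate 1 and in E0del/+ SkM replicates 1 and 2, and below some of them in the other 2 SkMs. The whole ventricle list summed to 2223 and 202 CPM in WT SkMs and to 1276, 1482 and 172 CPM in E0del/+ SkMs, with Actc1 the most abundant gene. The part of heart RNA in these values was not tested.

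The fast chains in WT LV replicate 2 were set against the SkM libraries to see whether their proportions matched a given mouse. Myh1 was 4.14% of Myh4 per length in that LV, 2.23% in the SkM of the same mouse, 4.05% in E0del/+ SkM replicate 3 and 6.64% to 8.92% in the other 3 SkMs. Myh2 was 1.05% of Myh4 in that LV, 0.683% in the SkM of the same mouse and 1.10% in E0del/+ SkM replicate 3. By both ratios the library was nearer to E0del/+ SkM replicate 3 than to the SkM of its own mouse. In counts, Myh1 made up 3.98% of Myh1 and Myh4 together in that LV (95% Wilson interval 3.89% to 4.06%), 3.89% in E0del/+ SkM replicate 3 (3.86% to 3.93%) and 2.18% in the SkM of its own mouse (2.16% to 2.21%). Levels in that LV were 23.1% of those in E0del/+ SkM replicate 3 for Myh4, 23.6% for Myh1 and 22.0% for Myh2, and with few counts 24.7% for Myh3 and 15.6% for Myh8. How these counts came into the library was not tested. In the other 4 LVs, Myh1 was 7.65% to 11.3% and Myh2 2.52% to 3.31% of Myh4, above WT SkM replicate 2 and E0del/+ SkM replicate 3 by both ratios.

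**Figure D5:**
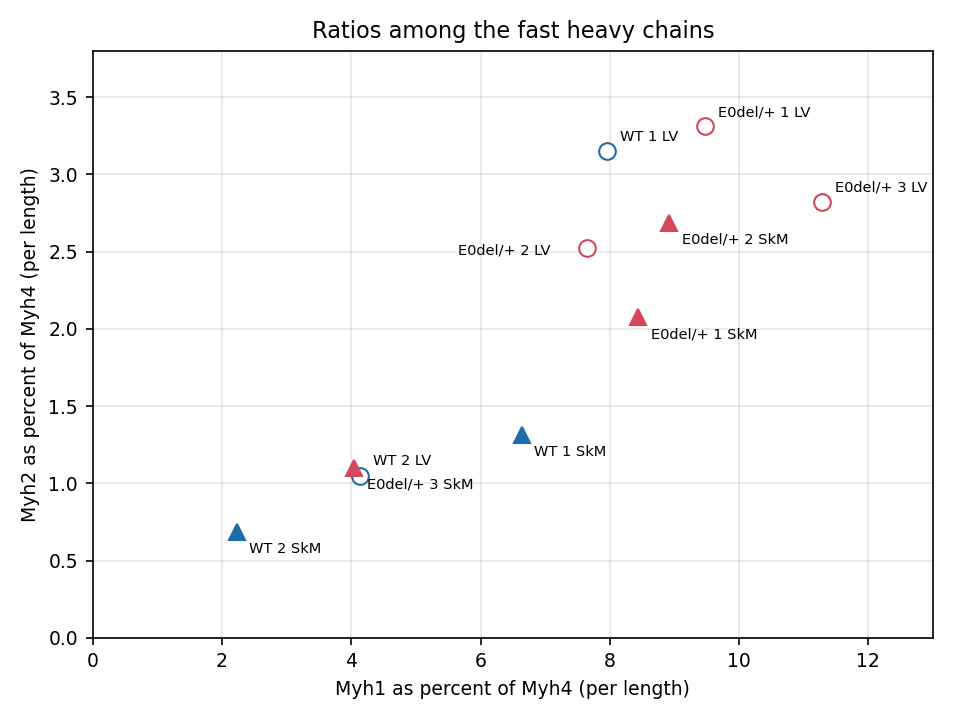
Myh2 against Myh1, each as a percentage of Myh4 per length, in the 10 libraries (open circles LV, filled triangles SkM, WT blue, E0del/+ red). The WT 2 LV point (4.14%, 1.05%) lies beside E0del/+ 3 SkM (4.05%, 1.10%) and away from WT 2 SkM (2.23%, 0.683%).

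Genes with the pattern most like a member were found over the 9 libraries other than WT LV replicate 2, among 6389 genes, by the root mean square difference of centred log2(CPM + 1). Myh6 was closest to Mybpc3 (0.421) and Tnnt2 (0.479), where the median gene stood at 4.42. Myh4 was closest to Actn3 (0.0927) and Atp2a1 (0.0987), genes of the fast Z-disc and the fast calcium pump, against a median of 5.22. Myh1 was closest to Mybpc1 (0.353), a slow-type myosin-binding protein C, and to Myh2 (0.394), and Myh2 to Mybpc1 (0.221) and Neb (0.331), with medians of 4.796 and 4.46. Myh7 had no gene as close for its range, with Egr1 (0.348) and Egln3 (0.709) nearest and a median of 1.49. The 9 libraries share 5 mice and 2 tissues, so closeness reflects mainly the difference between tissues. linc-Myh, a long RNA next to Myh3 and Myh2 that the files list as 2310065F04Rik (chr11:67112461-67120080), was looked at after its values were seen. It stood at 24.9 to 44.7 RPKM in SkM, at 0 to 0.0717 RPKM in 4 LVs and at 7.70 RPKM in WT LV replicate 2.

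Other myosin heavy chains and partners of myosin were read from fixed lists, whose counts stand beside 28.5% of all genes higher and 31.4% lower in SkM. Of 6 tested genes among the non-muscle, smooth muscle and extraocular heavy chains and Mhrt, 1 was higher in SkM, the extraocular Myh13 at a mean of 1.78 CPM, and 4 were lower (Myh9, Myh10, Myh14 and Mhrt), with a median log2 difference of -0.9996 where all genes had -0.04. Myh9, a non-muscle chain, was the highest of them by CPM in every LV (mean 369 CPM in the 4 LVs). Per length, Mhrt exceeded Myh9 in every LV, with 70.4 to 159 RPKM against 41.3 to 60.1 RPKM. In SkM the mean was 100.1 CPM for Myh14 and 94.3 CPM for Myh9, and Myh9 led in WT replicate 1 and E0del/+ replicate 1. Light chains and their kinases divided, with 5 of 11 higher and 4 lower in SkM and a median of 0.70, where the lower ones were near the share over all genes. Myl3 (3739 CPM) and Myl2 (2913 CPM), the ventricular and slow light chains, led by CPM in the 4 LVs before the kinase Mylk3 (737 CPM). In SkM, Myl1 (5437 CPM) and Mylpf (2847 CPM), the fast light chains, led by CPM before the kinase Mylk4 (1739 CPM). With all libraries, the largest differences of that list were those of the cardiac kinase Mylk3 (-8.75 ± 0.44), Mylpf (7.19 ± 1.22), the skeletal kinase Mylk2 (6.997 ± 1.204), Myl1 (6.00 ± 1.00) and Myl2 (-5.36 ± 0.55). The order changed without WT LV replicate 2, with 10.64 ± 0.38 for Mylpf, 10.32 ± 0.59 for Mylk2, -8.81 ± 0.45 for Mylk3, 8.58 ± 0.48 for Myl1 and -5.46 ± 0.58 for Myl2.

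Chaperones of the myosin head and thick filament proteins had 8 of 13 genes higher and 2 lower, with a median of 0.89 (28.5% of all genes were higher and 31.4% lower). Mybpc3, cardiac myosin-binding protein C (-9.11 ± 0.64), stood opposite Mybph (7.28 ± 0.93), Mybpc1 (6.68 ± 1.13), the fast Mybpc2 (5.71 ± 0.93) and the M-band gene Myom3 (3.12 ± 0.56). When WT LV replicate 2 was left out, Mybpc3 had -9.16 ± 0.64, Mybph 9.198 ± 0.80, Mybpc1 9.79 ± 0.55, Mybpc2 8.07 ± 0.36 and Myom3 3.32 ± 0.74. Mybpc3 (8452 CPM), Myom2 (2350 CPM) and Hsp90ab1 (1719 CPM) were the highest of the list by CPM in the 4 LVs, and Mybpc2 (8342 CPM), Myom2 (3030 CPM) and Myom1 (2029 CPM) in SkM. Of 25 genes listed for a possible part in the choice of heavy chain, 14 were higher and 4 lower in SkM, with a median of 0.64, against the same shares over all genes. With all libraries, the largest differences were in Gata4 (-8.32 ± 0.24), Hopx (-6.39 ± 0.17), Mstn (6.21 ± 0.95), Tbx15 (5.84 ± 0.95) and Eya4 (5.49 ± 0.72). Without WT LV replicate 2, Gata4 had -8.44 ± 0.23, Hopx -6.504 ± 0.15, Mstn 9.03 ± 0.43, Tbx15 8.41 ± 0.46 and Eya4 7.88 ± 0.27. Tead1 (316 CPM), Hopx (222 CPM) and Srf (193 CPM) were the highest by CPM in the 4 LVs, and Mef2c (850 CPM), Tead1 (442 CPM) and Tbx15 (432 CPM) in SkM. The counts of genes higher and lower without WT LV replicate 2 were 5 and 3 for light chains, 8 and 2 for the thick filament list, and 15 and 4 for the genes listed for heavy chain choice. In that fit 24.9% of all genes were higher and 27.9% lower.

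Markers of cell types completed the lists, again beside 28.5% of all genes higher and 31.4% lower. In SkM, 8 of 8 fast-fibre genes were higher, 2 of 7 slow-fibre genes were higher (Tnni1 and Tnnt1) and 5 lower, and 8 of 8 ventricle genes were lower. Of the atrial genes, 1 of 5 was higher (Sln) and 1 lower, Nppa, which held 364 CPM on average in the 4 LVs. Genes of regenerating muscle had 3 of 5 higher (Myod1, Myog and Myf5) and 1 lower, Tnnt2, which is also a ventricle marker, and they summed to 52.7 to 79.3 CPM in SkM, beside the low Myh3 and Myh8. Adipose genes were higher in 6 of 6, with sums of 1139 and 8.98 CPM in WT SkMs and of 285, 150 and 1198 CPM in E0del/+ SkMs, an order unlike that of any heavy chain. WT LV replicate 2 held 284 CPM of adipose genes, against 2.01 to 24.2 CPM in the other 4 LVs and 8.98 CPM in the SkM of its own mouse. The 1 blood gene tested, Alas2, was lower (log2 difference -1.12), and Hba-a1 and Hba-a2 had no counts. Without the mouse WT replicate 2, Alas2 had -0.87 and was not called. Smooth muscle genes were lower in 2 of 5 (Acta2 and Smtn), near the share over all genes. Between genotypes, edgeR's quasi-likelihood test with all libraries and no block called 0 genes of any list in LV or in SkM. The median log2 difference of the slow-fibre list in SkM was 1.00 where all genes had -0.01, and 0.19 without WT replicate 2, moving as the slow chains did. In LV the fast-fibre and adipose lists had medians of -6.84 and -3.39, and of 0.19 and 0.86 without WT replicate 2. The atrial list had a median of 1.10 in LV, and of 1.47 without WT replicate 2, where all genes had -0.01 and 0.00. Of its 5 tested genes, Myl4, Myl7, Sln and Mybphl were at 7.27 CPM or less in every LV, so these medians rest on low values. Nppa was at 220 and 197 CPM in WT LVs and at 221, 582 and 433 CPM in E0del/+ LVs, where E0del/+ replicate 2 was again the highest.

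Reads of these genes are hard to place because the members resemble each other. In GENCODE M21 transcripts, 26.1% of the windows of 50 bases of Myh1 and 26.7% of those of Myh2 occurred unchanged in another member, 22.6% of Myh6 and 22.2% of Myh7, 18.6% of Myh4 and 19.9% of Myh8, 3.66% of Myh3 and 0% of Myh7b. Of windows of 100 bases these shares were 9.46% for Myh1, 9.17% for Myh2, 11.4% for Myh6, 11.2% for Myh7, 3.85% for Myh4, 5.17% for Myh8 and 0% for Myh3 and Myh7b. Myh6 shared such windows with Myh7, and Myh1 most with Myh2. How reads that fit several genes were counted is not given in the sources used here, so small values of a member beside an abundant one are uncertain, among them Myh7 in LV beside Myh6, Myh6 in SkM, and Myh1, Myh2 and Myh8 in SkM beside Myh4. Antisense transcripts in GENCODE M21 also cover 8.56% of the exon bases of Myh1 (Myhas), 3.90% of Myh2, 8.64% of Myh7 (Gm31251), 1.88% of Myh6 and 0.600% of Myh7b, and without strand their reads cannot be told apart from those of the member.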

How the data were processed

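The authors deposited a raw count and an RPKM value per gene for each library. Submitters' processing notes name STAR, DESeq2 and mm10; the roles of the tools and the counting software are not given in the sources used here. RPKM equalled the deposited count divided by exon length and library total, and the raw counts went into all tests. Groups and batches came from the labels.

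Tests across genes used R 4.3.3 and edgeR 4.0.16: filterByExpr, TMM, the quasi-likelihood test and Benjamini-Hochberg adjustment with a threshold of 0.05, for each tissue, and over all 10 libraries for the tissue contrast and the interaction. They were tested on simulated data. Myh3 and Myh8 failed the filter in LV. Shares were compared by exact permutation, two-sided (scipy 1.17.1). No p is given for the summed level of the 8 genes. Wilson intervals use a 95% level.

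Alternatives were DESeq2 1.42.0 with its Wald test, its size factors, total counts, TMM without the heavy chain genes, no filter, at least 10 counts in every library, a single fit for both tissues, batch or mouse as a block, leaving out each library or mouse, raw-count shares and shares within the chains of a tissue. Xist expression (over 100 CPM) as a block was added after the data were seen. A batch number is shared by WT and E0del/+ mice. Correlations of their deviations from group means were 0.0595 and -0.150 in LV and 0.550 and 0.336 in SkM, and those of the tissues of a mouse -0.101 to 0.0918. With 2 WT mice their deviations are equal and opposite, so the 2 values of a tissue are not independent. In LV these deviations also carry the skeletal muscle counts of WT replicate 2.

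The lists were other heavy chains, light chains, thick filament and chaperones, and genes with a possible part in heavy chain choice. Others held markers of fast and slow fibres, ventricle, atrium, regenerating muscle, adipose tissue, blood and smooth muscle. Mymk, Mymx, Hbb-bs and Hbb-bt had no match. Named were all members, Ttn, the most abundant list genes, list genes past the threshold (up to 5 by size) and the 2 genes most like a member with at least 20 CPM. Members and lists were chosen with earlier results of these data known. Sequences are from RefSeq tables of GRCm38.p6, where all 8 members matched (of 2 Myh7 promoters, the last listed was used). Shared windows and antisense overlaps are from GENCODE M21.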

Additional observations from a re-analysis of the deposited data

How the results depend on the processing

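Of the values under alternatives for the main results, 94 were counted as unchanged, 6 counts moved by over 1.5 times and 2 values reversed. The summed heavy chain share in LV changed sign without WT replicate 2 and without E0del/+ replicate 2. These changes of sign were not counted as reversals. For single members, 448 values kept direction and side of the threshold, 10 newly passed it in the same direction and 12 reversed. Calls between genotypes in LV went from 0 to 12 with DESeq2's Wald test, to 5 with the replicate block, which pairs the batches, and lay between 0 and 578 when a library was left out. In SkM the replicate block called 1 gene in place of 0. The interaction had 17 calls with DESeq2 and 0 to 174 without a mouse. With the mouse as a block, 7972 genes were called between tissues in place of 8579.

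The share of Myh6 in LV, E0del/+ minus WT, was -0.341 points among Myh6 and Myh7 alone and ranged from -0.595 to 31.4 points when a library was left out. For shares of other members the range was -1.31 to 0.00232 points for Myh1 and -31.7 to 0.00385 points for Myh4 in LV, and -0.00387 to 0.000334 points for Myh3 in SkM. Log2 differences ranged over leave-outs from -6.87 to 0.312 for Myh1 and from -8.08 to 0.0486 for Myh4 in LV, and from -1.01 to 0.280 for Myh3 and from -0.136 to 0.130 for Myh4 in SkM. For the interaction the ranges were -0.0146 to 8.35 for Myh1, 0.712 to 2.24 for Myh3 and 0.164 to 7.90 for Myh4, and without WT LV replicate 2 alone the values were -0.0140 for Myh3 and -0.0922 for Myh4. With the Xist block Myh4 in SkM was at 0.0248. A lone WT library is taken to vary like the other groups. For single members, the reversals in LV and in the interaction came with the removal of WT replicate 2. Among LVs, the library of WT replicate 2 alone holds fast chains at over 100 CPM. For the share of Myh6, a reversal also came with the removal of the fast chains from its denominator. For the reversals in SkM the cause was not tested. The summed share of the 8 genes in LV, E0del/+ minus WT, ranged from -0.579 to 0.0583 points over leave-outs. Its sign also changed without E0del/+ replicate 2. Depth limits Myh3 and Myh8 in LV, with 9 counts or fewer per library.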
